A study of Mus musculus with 12 samples.

Results

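The amino acid transporters described here are the 66 gene symbols of the expression table that belong to 7 solute carrier families, SLC1, SLC3, SLC6, SLC7, SLC36, SLC38 and SLC43. They were taken by name alone from a table of 24493 symbols. Each of the 66 is listed in RefSeq for GRCm38.p6, the source of the coordinates given. The name takes in some genes that move other solutes, such as the creatine carrier Slc6a8, the taurine carrier Slc6a6 and the monoamine carriers Slc6a2, Slc6a3 and Slc6a4. It also takes in 3 genes named for lying opposite a transporter, Slc36a1os, Slc6a19os and Slc7a6os, which are not transporters themselves.

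RNA was sequenced from 12 libraries of a mouse pancreatic tumour cell called 6649c2, implanted under the skin of C57BL/6 mice and sorted from the tumours that grew. The genotype labels were EgfrKO, Klf5KO, Smad4KO and WT, with 3 libraries each, and all groups shared the cell line, the strain, the subcutaneous site and the sorting step. The labels give no other treatment, time or animal age, do not say whether a knockout was 1 clone or a pool, and do not give the gate used for sorting. They also do not say whether the libraries of a group came from separate tumours, so the p-values below rest on a spread between libraries that may be technical only. Values are TPM, transcript abundances given as a share of each library corrected for transcript length, so levels of different genes can be set side by side, but the depth behind them is unknown and a gene without signal is only listed at 0.

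Amino acids cross membranes through carriers with overlapping cargo. The SLC7 light chains pair with the SLC3 heavy chains, which bring them to the cell surface, and exchange one amino acid for another, so they depend on other carriers to fill the cell. Sodium-coupled carriers such as SNAT2, encoded by Slc38a2, supply the amino acids that are exchanged. Lysosomal carriers of the SLC36 and SLC38 families return amino acids from degraded protein and take part in the control of the growth kinase mTORC1. In pancreatic tumours glutamine uptake, the cystine and glutamate exchanger xCT and the supply of arginine and leucine have been studied as points where the tumour depends on nutrients.

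The targeted genes were checked first. Egfr was 4.29 ± 0.759 TPM in EgfrKO libraries and 13.1 ± 0.850 TPM in WT libraries, and Smad4 was 30.7 ± 2.39 TPM in Smad4KO libraries and 75.5 ± 4.45 TPM in WT libraries (SD, n = 3 each). Klf5 was 93.8 ± 6.35 TPM in the libraries labelled Klf5KO and 112 ± 16.8 TPM in WT libraries, and the values overlapped, so the TPM of Klf5 do not check that label. The name Klf5KO below is the label only. The epithelial markers, led by Krt8 and Krt18 with means of 2514 and 2381 TPM over all libraries, summed to 7341 to 7844 TPM in EgfrKO, 4579 to 5112 TPM in Klf5KO and 7846 to 8812 TPM in Smad4KO libraries, against 5425 to 5883 TPM in WT libraries. Markers of other cells were present in every group and differed between groups. The 9 fibroblast markers, led by Col1a1 and Col1a2, summed to 116 to 124 TPM in EgfrKO, 288 to 601 TPM in Klf5KO and 46.6 to 74.5 TPM in Smad4KO libraries, against 51.6 to 133 TPM in WT libraries, and 7 of the 8 that could be tested were higher in Klf5KO. The 8 macrophage markers, led by Lyz2 and C1qa, summed to 1234 to 1331 TPM in EgfrKO, 1043 to 1668 TPM in Klf5KO and 182 to 804 TPM in Smad4KO libraries, against 733 to 1459 TPM in WT libraries, and 2 of the 8 were lower in Smad4KO, where replicate 2 alone gave the lowest sum. The 7 leukocyte markers, led by Fcer1g and Tyrobp, summed to 302 to 314 TPM in EgfrKO, 276 to 436 TPM in Klf5KO and 74.2 to 180.1 TPM in Smad4KO libraries, against 179.5 to 267 TPM in WT libraries. The 5 endothelial markers, led by Cdh5 and Pecam1, summed to 6.89 to 9.36 TPM in EgfrKO, 12.2 to 15.4 TPM in Klf5KO and 2.49 to 3.39 TPM in Smad4KO libraries, against 2.38 to 3.46 TPM in WT libraries. Neutrophil, T and NK, B cell, and neuron and glia markers summed to at most 23.2, 14.8, 1.58 and 13.2 TPM in any library. The defining markers Ly6g in EgfrKO, Gfap in Klf5KO and Rbfox3 in Klf5KO and Smad4KO were listed at 0 in all libraries of those groups. In sorted bulk samples such as these, fewer cells of a type and less RNA per cell cannot be told apart, and the part of other cells in the results below was not tested except where a value is given.

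Together the 66 genes made up 954 ± 42.4 TPM in EgfrKO, 1125 ± 73.1 TPM in Klf5KO and 855 ± 53.1 TPM in Smad4KO libraries, against 909.9 ± 25.5 TPM in WT libraries (SD, n = 3 each). The most abundant were Slc6a6, Slc3a2, Slc38a2, Slc38a10 and Slc7a6, which held 540.3 ± 26.9, 659.8 ± 45.003 and 475 ± 28.0 TPM of those sums in EgfrKO, Klf5KO and Smad4KO, against 542 ± 14.8 TPM in WT. Of the 66, 32 reached 1 TPM in at least 3 libraries and were tested, 16 of them with a mean of at least 10 TPM. Slc38a1 passed this filter through the Klf5KO libraries alone, and Slc6a19 and Slc6a20a through the Smad4KO libraries alone, while Slc1a2 passed through the 3 Klf5KO libraries and 1 EgfrKO library. Each of these 4 genes would have failed without the group where it was high, so that difference was bound to follow from the filter and is given below as values with no p. The other 34 were at or near 0 and are described at the end.

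**Figure D1:**
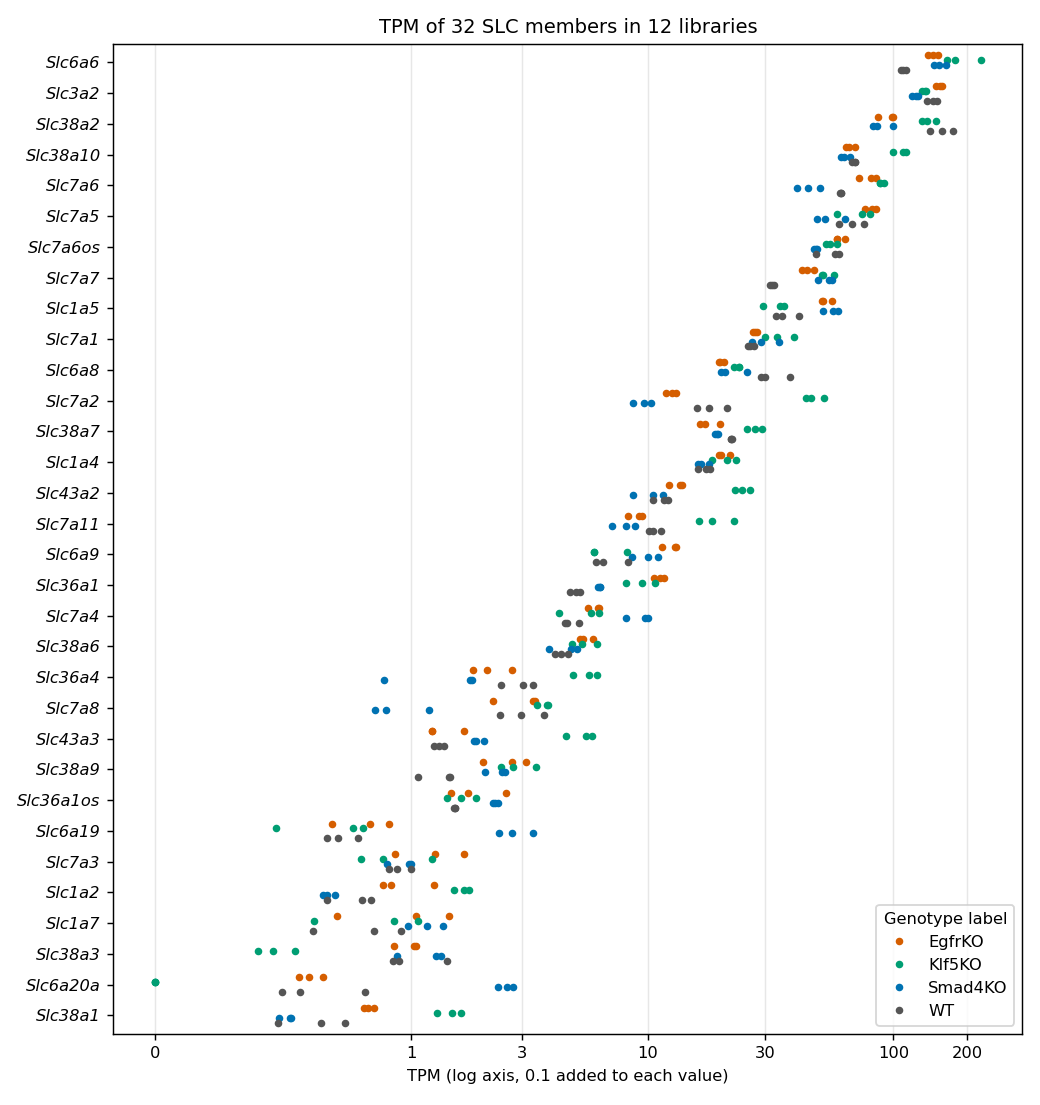
TPM of the 32 tested genes (horizontal log axis, 0.1 added to each value) in each of the 12 libraries, 1 point per library, with genes ordered by mean TPM and genotype labels stacked within each row in the order EgfrKO, Klf5KO, Smad4KO, WT. Slc6a6, Slc3a2 and Slc38a2 lie at the top, and the Klf5KO points of Slc7a2, Slc43a2 and Slc43a3 stand apart from all others.

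Differences were fitted with limma on log2(TPM + 1) for all 13662 genes past the filter, and a gene is called where its p, adjusted by the Benjamini-Hochberg method over those genes, is under 0.05. In EgfrKO against WT, 8 of the 32 were higher and 4 lower, where 31.3% of all tested genes were higher and 12% lower (43.3% either way). In Klf5KO against WT, 16 were higher and 3 lower, where 55.2% of all tested genes were higher and 11.1% lower (66.3% either way), and the 16 include Slc38a1 and Slc1a2. In Smad4KO against WT, 11 were higher and 10 lower, where 32.2% of all tested genes were higher and 17.4% lower (49.6% either way), and the 11 include Slc6a19 and Slc6a20a. The median log2 fold change of the 32 was 0.19 in EgfrKO, 0.26 in Klf5KO and 0.00 in Smad4KO, beside 0.14, 0.31 and 0.10 for all tested genes. The counts of higher genes in EgfrKO and Klf5KO thus lay near or below the share of all genes. The count of lower genes in Smad4KO, 10 of 32, lay above the 17.4% of all genes, but no test of that difference was made. That count was 7 to 9 when single Smad4KO or WT libraries were left out.

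Because the median of all genes was shifted, most in Klf5KO, each change was also measured after median-of-ratios scaling, which sets that median near 0. After scaling 7 of the 32 were higher and 6 lower in EgfrKO, beside 18.0% and 22.2% of all genes. In Klf5KO 12 were higher and 8 lower, beside 24.6% and 27.5% of all genes, and in Smad4KO 9 were higher and 12 lower, beside 25.1% and 24.7%. Some calls were made as deposited, after this scaling and after quantile normalization alike. These were 7 genes higher and 4 lower in EgfrKO, 12 higher and 3 lower in Klf5KO, and 7 higher and 10 lower in Smad4KO. The 12 include Slc38a1 and Slc1a2, and the 7 in Smad4KO include Slc6a19 and Slc6a20a, differences bound to follow from the filter. The share of all genes that kept their call in this way was not counted. The 11 higher calls in Smad4KO as deposited fell to 7 without WT replicate 2 or without Smad4KO replicate 2.

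**Figure D2:**
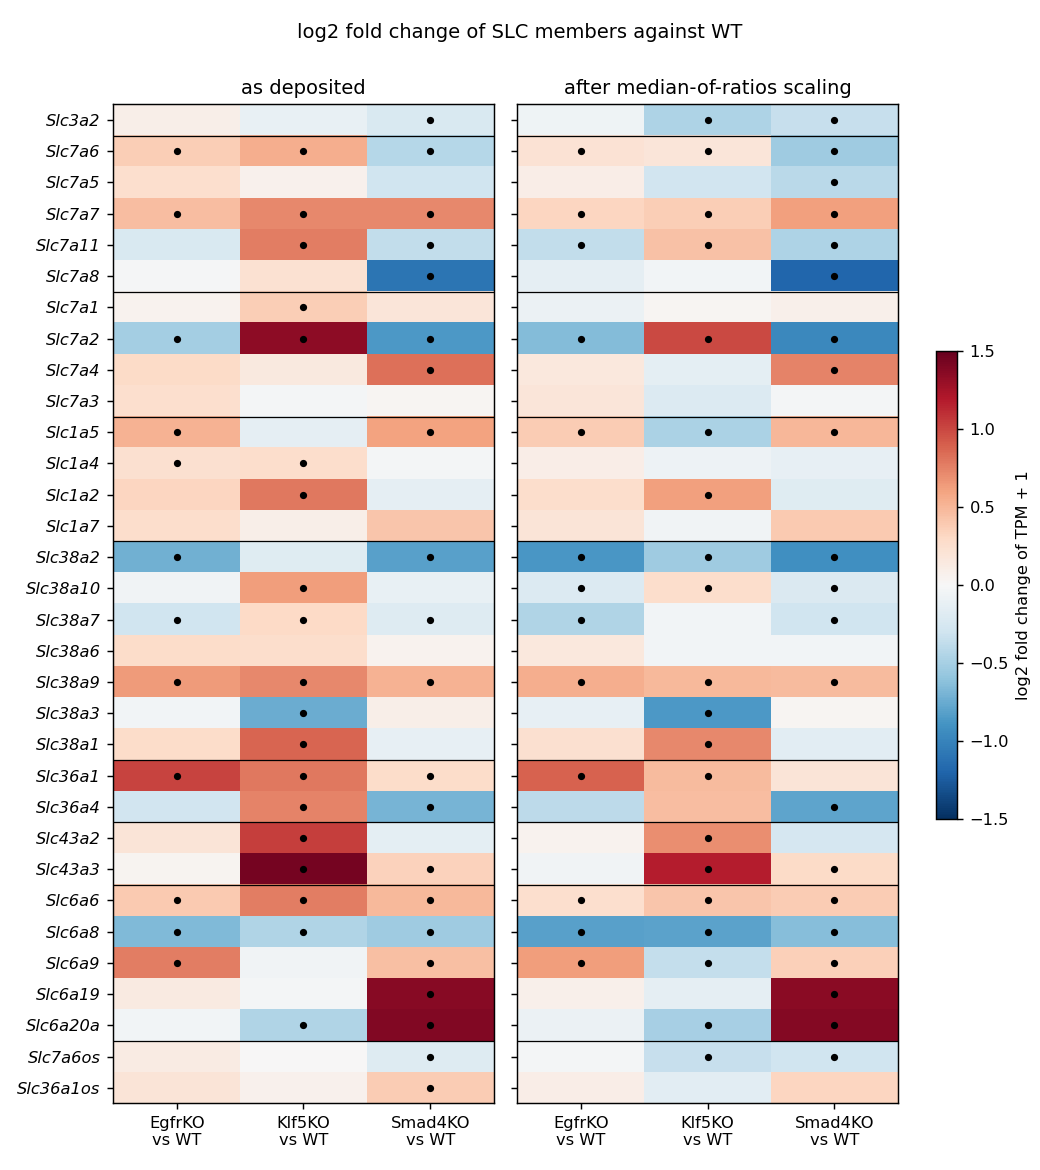
log2 fold change of TPM + 1 against WT for the 32 tested genes, as deposited (left) and after median-of-ratios scaling (right), with genes grouped by role and dots marking adjusted p under 0.05. Slc7a2 and Slc7a11 are red in Klf5KO and blue in Smad4KO in both panels, while Slc7a7, Slc6a6 and Slc38a9 are red in all 3 columns and Slc6a8 is blue in all 3.

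Among the heteromeric transporters, the Slc3a2 heavy chain moved little while its light chains moved in different directions. Slc3a2 (chromosome 19, 8706882 to 8723369 in GRCm38.p6), which encodes the CD98 heavy chain, was measured at 157, 155 and 149 TPM in EgfrKO libraries, 131, 134 and 136 TPM in Klf5KO libraries and 125, 124 and 119 TPM in Smad4KO libraries, against 151, 137 and 145 TPM in WT libraries. The Smad4KO libraries lay below all WT libraries, with a log2 fold change of -0.23 ± 0.05 (SE, limma adjusted p = 0.00125). In Klf5KO the value was -0.11 and not called (adjusted p = 0.0542), but it was called without WT replicate 2 (0.0253) and, at -0.46, after scaling (3.24e-05). Of the 10 light chain genes in the table, not all of which pair with Slc3a2, 5 were tested. Of these 5, 2 were higher and 0 lower in EgfrKO, 3 higher and 0 lower in Klf5KO, and 1 higher and 3 lower in Smad4KO. Of all tested genes, 31.3% were higher and 12% lower in EgfrKO, 55.2% and 11.1% in Klf5KO, and 32.2% and 17.4% in Smad4KO. These shares also stand beside the family counts below.

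Slc7a6 (chromosome 8, 106168219 to 106198714), the light chain y+LAT2 that releases arginine in exchange for neutral amino acids, was measured at 85.3, 81.2 and 72.3 TPM in EgfrKO libraries, 91.5, 88.4 and 88.6 TPM in Klf5KO libraries and 45.03, 50.4 and 40.6 TPM in Smad4KO libraries, against 60.8, 61.3 and 61.4 TPM in WT libraries. No group overlapped WT, with EgfrKO and Klf5KO above it and Smad4KO below it. The log2 fold changes against WT were 0.37 ± 0.08 in EgfrKO (adjusted p = 0.00246), 0.54 ± 0.08 in Klf5KO (8.04e-05) and -0.43 ± 0.08 in Smad4KO (0.000642), and each call held after scaling. Slc7a7 (chromosome 14, 54369442 to 54420068), the related light chain y+LAT1, was measured at 47.4, 44.6 and 42.4 TPM in EgfrKO libraries, 57.5, 51.7 and 51.2 TPM in Klf5KO libraries and 54.8, 56.3 and 49.5 TPM in Smad4KO libraries, against 32.6, 32.1 and 31.6 TPM in WT libraries. Every knockout library lay above every WT library, which spanned only 31.6 to 32.6 TPM. Slc7a7 rose by 0.47 ± 0.07 in EgfrKO, 0.72 ± 0.07 in Klf5KO and 0.72 ± 0.07 in Smad4KO on the log2 scale, with adjusted p of 0.000208, 4.15e-06 and 3.99e-06. In Smad4KO, then, the 2 y+LAT genes moved in opposite directions.

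Slc7a5, the large neutral amino acid exchanger LAT1, averaged 81.0 ± 4.13 TPM in EgfrKO, 71.3 ± 10.99 TPM in Klf5KO and 55.1 ± 7.58 TPM in Smad4KO, against 68.0 ± 7.93 TPM in WT (SD, n = 3 each). It was not called against WT as deposited, with log2 fold changes of 0.25, 0.06 and -0.30 and a smallest adjusted p of 0.0637 in Smad4KO. That Smad4KO difference was called without WT replicate 2 (adjusted p = 0.0382), without Smad4KO replicate 2 (0.0226) and after scaling (0.0127). With the leukocyte or macrophage list as a covariate, Slc7a5 was called lower in Smad4KO, at -0.45 (0.00692) or -0.44 (0.0066), and higher in EgfrKO, at 0.43 (0.0145) or 0.36 (0.0174). Slc7a8, the related exchanger LAT2, was far less abundant, at 3.40, 3.33 and 2.26 TPM in EgfrKO libraries, 3.48, 3.83 and 3.84 TPM in Klf5KO libraries and 1.21, 0.684 and 0.768 TPM in Smad4KO libraries, against 2.43, 3.73 and 2.98 TPM in WT libraries. All Smad4KO libraries lay below all others, and the log2 fold change there was -1.10 ± 0.16 (adjusted p = 0.000165), a mean at 29.1% of WT. The macrophage marker sum was also lowest in a Smad4KO library. Slc7a8 was also called with that list as a covariate, but such a fit does not measure the part of macrophages, which was not tested.

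Slc7a11 (chromosome 3, 50364936 to 50499087), the xCT light chain that imports cystine in exchange for glutamate, was measured at 9.42, 9.14 and 8.28 TPM in EgfrKO libraries, 22.5, 16.2 and 18.3 TPM in Klf5KO libraries and 8.13, 8.85 and 7.08 TPM in Smad4KO libraries, against 11.3, 10.5 and 10.1 TPM in WT libraries. The Klf5KO libraries lay above all others, and the EgfrKO and Smad4KO libraries lay below all WT libraries. The log2 fold change was 0.77 ± 0.12 in Klf5KO (adjusted p = 0.000124), -0.37 ± 0.12 in Smad4KO (0.0202) and -0.22 ± 0.12 in EgfrKO (0.139, not called). The Smad4KO call was lost without WT replicate 1 (0.0663) or Smad4KO replicate 3 (0.0782). With the fibroblast list in the model Slc7a11 was -0.15 in Smad4KO (0.324), no longer called, and -0.30 in EgfrKO (0.0243), now called, and its Klf5KO fold change was 0.25 (adjusted p = 0.419). The mean level of that list did not overlap between Klf5KO and WT libraries. In that comparison, here and below, the list and the label cannot be told apart. After scaling Slc7a11 was lower in EgfrKO, at -0.36 (0.00774), as well as in Smad4KO, at -0.47 (0.00119), and higher in Klf5KO, at 0.44 (0.00187).

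The light chains that pair with Slc3a2 summed to 1.41 ± 0.0546 times Slc3a2 in EgfrKO, 1.77 ± 0.162 times in Klf5KO and 1.33 ± 0.109 times in Smad4KO libraries, against 1.21 ± 0.0492 times in WT libraries (SD of the ratio of TPM, n = 3 each). Most of each sum came from Slc7a5, Slc7a6 and Slc7a7. They averaged 55.1, 45.3 and 53.5 TPM in Smad4KO libraries, against 68.0, 61.2 and 32.1 TPM in WT libraries.

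**Figure D3:**
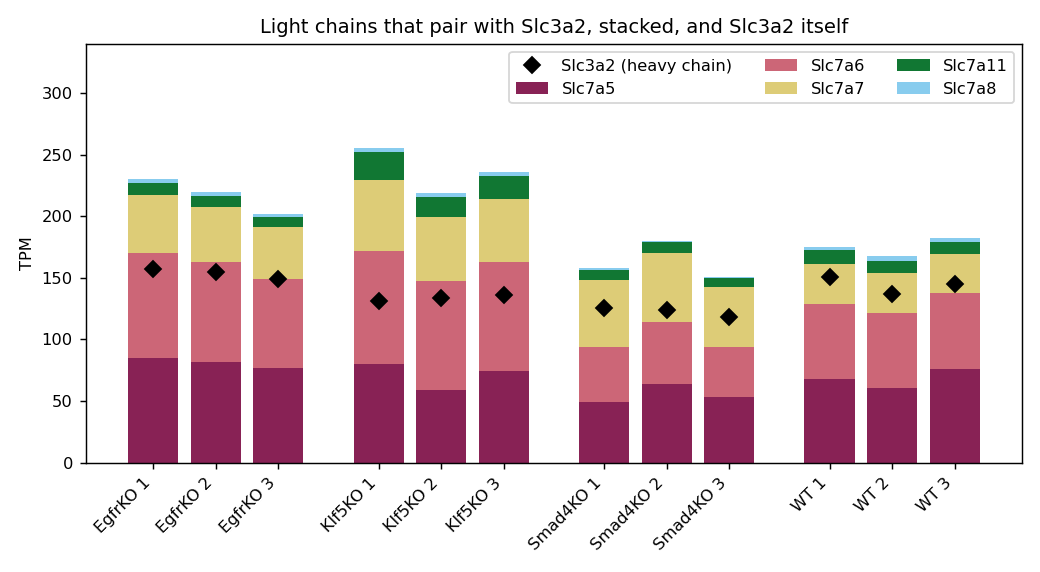
Stacked bars give the TPM of the 5 detected light chains that pair with Slc3a2 in each of the 12 libraries, and black diamonds give the TPM of Slc3a2. The stacks exceed the diamond in every library, most in the Klf5KO libraries, and the Slc7a6 segment is smallest in the Smad4KO libraries.

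The promoters of 3 tested genes hold the letters TGATGNAA, the core of the composite site that C/EBP and ATF factors such as Atf4 bind when amino acids are scarce, and their windows are shown for that reason. Each runs from 250 bases before to 50 bases after the transcript start in RefSeq annotation of GRCm38.p6, 5′ to 3′ on the strand of the gene, with matches on either strand in capitals.
Slc7a11 (chr3:50443564-50443863, minus strand): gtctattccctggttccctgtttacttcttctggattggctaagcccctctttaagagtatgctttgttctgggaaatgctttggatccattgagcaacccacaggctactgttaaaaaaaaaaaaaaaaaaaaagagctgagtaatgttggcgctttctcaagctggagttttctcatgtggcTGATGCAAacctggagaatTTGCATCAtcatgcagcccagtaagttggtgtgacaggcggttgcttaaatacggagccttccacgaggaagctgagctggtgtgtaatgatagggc
Slc7a7 (chr14:54417895-54418194, minus strand): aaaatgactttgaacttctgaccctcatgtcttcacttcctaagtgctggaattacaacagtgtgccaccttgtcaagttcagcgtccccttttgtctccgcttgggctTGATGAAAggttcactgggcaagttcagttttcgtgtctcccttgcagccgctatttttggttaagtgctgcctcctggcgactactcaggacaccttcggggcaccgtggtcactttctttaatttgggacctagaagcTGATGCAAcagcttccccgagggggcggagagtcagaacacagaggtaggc
Slc1a4 (chr11:20332664-20332963, minus strand): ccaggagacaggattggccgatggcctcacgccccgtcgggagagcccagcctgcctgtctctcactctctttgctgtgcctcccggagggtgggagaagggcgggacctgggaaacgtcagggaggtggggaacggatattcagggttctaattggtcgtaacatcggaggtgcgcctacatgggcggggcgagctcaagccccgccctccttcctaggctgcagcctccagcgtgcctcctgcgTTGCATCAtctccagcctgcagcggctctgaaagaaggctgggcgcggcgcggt
Counted from the 5′ end of the window, matches began at bases 185 and 204 in Slc7a11, 110 and 250 in Slc7a7 and 247 in Slc1a4. Of the 66 genes, 48 had at least 1 window in the table, 69 windows in all, and 5 of the 69 (7.25%) held the letters, as did 1304 of all 32851 windows (3.97%). Among the windows of tested genes it was 4 of 31 (12.9%), from 3 genes. The core of the antioxidant response element, TGACNNNGC on either strand, was in 12 of the 69 windows (17.4%), 8 of the 31 (25.8%) and 12.4% of all windows. Windows of a gene can overlap, and the same TGATGNAA site of Slc7a7 and TGACNNNGC site of Slc7a6 were each counted in more than 1 window. Counted by gene, TGATGNAA was in 3 of 22 tested genes, 4 of the 48 and 1219 of all 27025 genes with a window. TGACNNNGC was in 6 of 22, 10 of 48 and 3781 of 27025. A match is only a match of letters, and the 3 genes shown did not share 1 pattern across the genotypes.

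In the cationic amino acid transporter group, Slc7a2 had the largest ratio of its highest to its lowest library among the 16 tested genes with a mean of at least 10 TPM. Slc7a2 (chromosome 8, 40862341 to 40922070), which encodes the arginine, lysine and ornithine carrier CAT2, was measured at 13.0, 11.8 and 12.6 TPM in EgfrKO libraries, 46.1, 44.2 and 52.2 TPM in Klf5KO libraries and 9.63, 10.3 and 8.69 TPM in Smad4KO libraries, against 15.8, 17.8 and 21.1 TPM in WT libraries. The 4 groups did not overlap, with Klf5KO highest, then WT, EgfrKO and Smad4KO. Against WT the log2 fold change was -0.51 ± 0.10 in EgfrKO (adjusted p = 0.00232), 1.34 ± 0.10 in Klf5KO (1.27e-06) and -0.86 ± 0.10 in Smad4KO (3.36e-05), so the Klf5KO mean was 2.60 times that of WT and the Smad4KO mean 52.3% of it. After scaling the values were -0.65, 0.99 and -0.97, all called. The Klf5KO value with the fibroblast covariate was 1.54 (adjusted p = 0.00299). Klf5KO exceeded Smad4KO by 2.20 ± 0.10 (1.14e-08), with means 4.98 times apart.

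The other cationic carriers did not follow Slc7a2. Slc7a1, the general arginine carrier CAT1, averaged 27.3 TPM in EgfrKO, 34.4 TPM in Klf5KO and 29.9 TPM in Smad4KO, against 26.2 TPM in WT. It was called only in Klf5KO, at 0.37 (adjusted p = 0.00654), and there the value after scaling was 0.02 (0.823). Slc7a4, a relative of these carriers whose transport has remained unclear, was measured at 6.25, 6.19 and 5.63 TPM in EgfrKO libraries, 6.26, 5.80 and 4.28 TPM in Klf5KO libraries and 9.71, 10.002 and 8.12 TPM in Smad4KO libraries, against 4.61, 5.17 and 4.53 TPM in WT libraries. The Smad4KO libraries were the highest without overlap, and the log2 fold change was 0.83 ± 0.12 (adjusted p = 0.000187). A Klf5KO difference of 0.15 was not called with all libraries (0.311) and was called without Klf5KO replicate 3 (0.0419). Slc7a3, the arginine carrier CAT3, ranged over 0.844 to 1.70 TPM in EgfrKO, 0.585 to 1.24 TPM in Klf5KO and 0.779 to 0.997 TPM in Smad4KO, against 0.793 to 0.998 TPM in WT, and was not called.

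**Figure D4:**
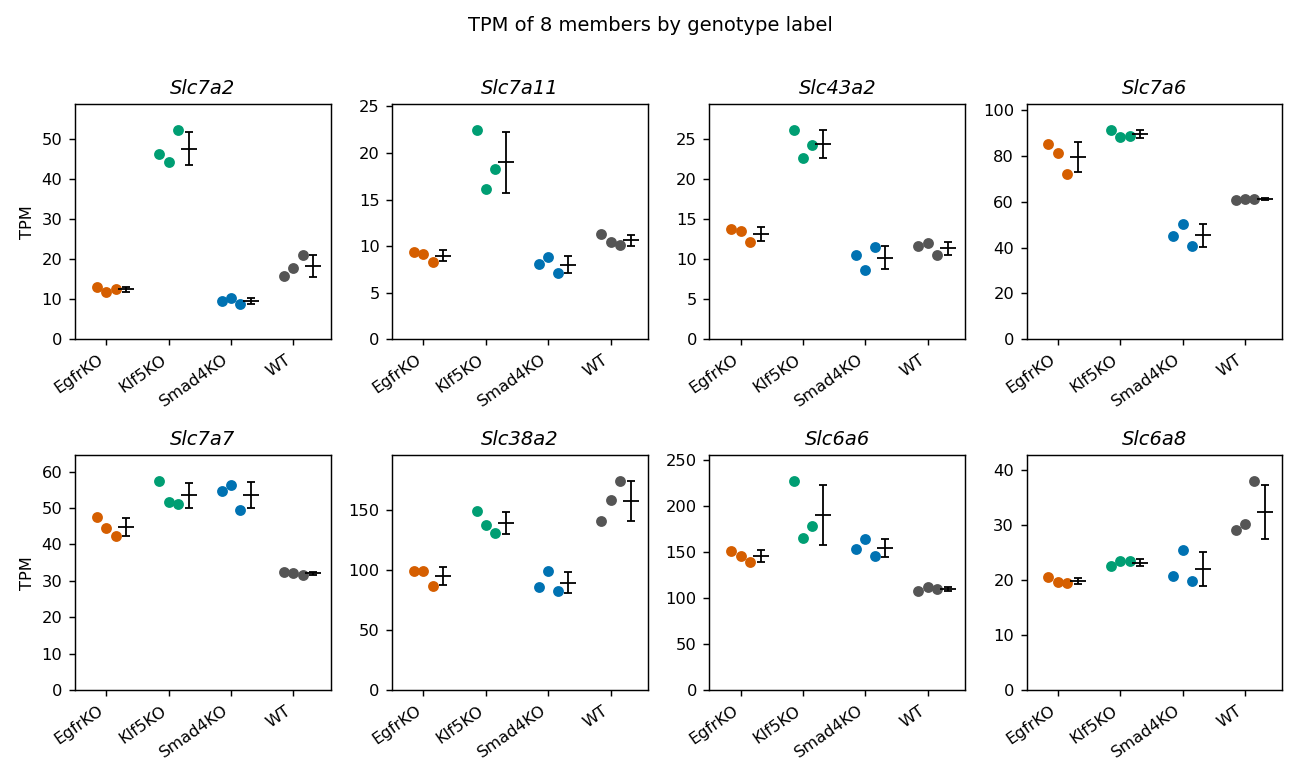
TPM of 8 genes by genotype label (linear axes from 0), 1 point per library, with bars for the mean ± SD of 3 libraries. Slc7a2, Slc7a11 and Slc43a2 are highest in Klf5KO, Slc7a6 is lowest in Smad4KO, Slc7a7 and Slc6a6 are lowest in WT, and Slc38a2 and Slc6a8 have their highest mean in WT.

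Of the SLC1 carriers, 4 of 7 were tested, with 2 higher and 0 lower in EgfrKO, 2 higher and 0 lower in Klf5KO, and 1 higher and 0 lower in Smad4KO. Slc1a2, among the 2 higher in Klf5KO, would have failed the filter without that group. Slc1a5, the glutamine exchanger ASCT2, was measured at 51.5, 56.1 and 51.5 TPM in EgfrKO libraries, 36.1, 29.6 and 34.6 TPM in Klf5KO libraries and 56.8, 59.4 and 51.7 TPM in Smad4KO libraries, against 41.5, 35.3 and 33.2 TPM in WT libraries. EgfrKO and Smad4KO libraries lay above all WT libraries, and Klf5KO libraries overlapped WT. It rose by 0.53 ± 0.09 in EgfrKO (adjusted p = 0.00102) and 0.60 ± 0.09 in Smad4KO (0.000257) on the log2 scale, and was -0.13 in Klf5KO (0.241, not called). After scaling the Klf5KO value was -0.48 and called (0.000641). Slc1a4, the alanine, serine and cysteine carrier ASCT1, averaged 20.4 TPM in EgfrKO, 20.8 TPM in Klf5KO and 16.7 TPM in Smad4KO, against 17.0 TPM in WT. Its calls in EgfrKO (0.24, adjusted p = 0.0347) and Klf5KO (0.27, 0.0152) were weak. The EgfrKO call was lost after scaling (0.289) and without WT replicate 2 or 3 or EgfrKO replicate 1 or 2 (0.0669 to 0.12). The Klf5KO value was -0.08 after scaling (0.402), and the call was lost without WT replicate 2 (0.0595) or Klf5KO replicate 1 (0.064).

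Slc1a2, the glutamate carrier known from astrocytes, was low, at 0.748, 1.27 and 0.816 TPM in EgfrKO libraries, 1.71, 1.79 and 1.54 TPM in Klf5KO libraries and 0.400, 0.381 and 0.440 TPM in Smad4KO libraries, against 0.655, 0.592 and 0.400 TPM in WT libraries. The Klf5KO libraries were the highest without overlap, and the log2 fold change was 0.79 ± 0.14, a value that admitted the gene to the test. With the fibroblast list in the model it was 0.63. Slc1a7, a glutamate carrier of the retina, spanned 0.451 to 1.46 TPM in EgfrKO, 0.345 to 1.07 TPM in Klf5KO and 0.970 to 1.39 TPM in Smad4KO, against 0.339 to 0.900 TPM in WT, and was not called.

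The SLC38 family supplied 7 tested genes of 11, with 1 higher and 2 lower in EgfrKO, 4 higher and 1 lower in Klf5KO, and 1 higher and 2 lower in Smad4KO. Slc38a1, among the 4 higher in Klf5KO, passed the filter through Klf5KO alone. Slc38a2 (chromosome 15, 96687392 to 96699728), the sodium-coupled carrier SNAT2 whose expression is known to rise when amino acids are scarce, was measured at 99.1, 99.4 and 86.3 TPM in EgfrKO libraries, 149, 137 and 131 TPM in Klf5KO libraries and 85.7, 99.4 and 82.9 TPM in Smad4KO libraries, against 141, 158 and 174 TPM in WT libraries. EgfrKO and Smad4KO libraries lay below every WT and Klf5KO library, and Klf5KO overlapped WT. Slc38a2 fell in EgfrKO, with a log2 fold change of -0.72 ± 0.09 (adjusted p = 0.000104), and in Smad4KO, with -0.81 ± 0.09 (2.32e-05), to 60.3% and 56.7% of the WT mean. In Klf5KO the value was -0.18 ± 0.09 (0.111, not called), and it was called without WT replicate 1 (0.0356) and, at -0.53, after scaling (0.00018).

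Slc38a10, a family member with a less defined role, was measured at 69.6, 66.3 and 64.0 TPM in EgfrKO libraries, 112, 100.02 and 109 TPM in Klf5KO libraries and 63.1, 66.9 and 61.3 TPM in Smad4KO libraries, against 69.6, 69.6 and 68.2 TPM in WT libraries. Only the Klf5KO libraries stood above WT, by 0.62 ± 0.06 on the log2 scale (adjusted p = 3.11e-06). With the fibroblast list as a covariate, which cannot be told apart from the label, the value was 0.44 (0.0275). After scaling Slc38a10 was also called lower in EgfrKO, at -0.20 (0.00201), and in Smad4KO, at -0.22 (0.00077), where all libraries already lay below WT as deposited. Slc38a7, a lysosomal glutamine carrier, averaged 17.6 ± 1.75 TPM in EgfrKO, 27.3 ± 1.88 TPM in Klf5KO and 19.1 ± 0.204 TPM in Smad4KO, against 21.9 ± 0.107 TPM in WT (SD, n = 3 each). Its log2 fold changes were -0.30 in EgfrKO (adjusted p = 0.00669), 0.30 in Klf5KO (0.00329) and -0.19 in Smad4KO (0.0483). The Klf5KO value was -0.04 after scaling (0.651), and the Smad4KO call was lost without any 1 of the 3 WT or 3 Smad4KO libraries (0.0832 to 0.114). After scaling the Smad4KO value was -0.29 (0.00453). Slc38a9, the lysosomal arginine sensor that acts on mTORC1, was measured at 3.14, 2.73 and 2.06 TPM in EgfrKO libraries, 3.44, 2.44 and 2.75 TPM in Klf5KO libraries and 2.09, 2.54 and 2.46 TPM in Smad4KO libraries, against 1.47, 1.48 and 1.07 TPM in WT libraries. Every knockout library lay above every WT library, and the log2 fold changes were 0.63 ± 0.15 in EgfrKO (0.00491), 0.73 ± 0.15 in Klf5KO (0.00101) and 0.53 ± 0.15 in Smad4KO (0.0108), all called after scaling as well. The fibroblast covariate left a Klf5KO value of 0.26 (0.592).

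Slc38a1 and Slc38a3, the glutamine carriers SNAT1 and SNAT3, were low and moved apart in Klf5KO. Slc38a1 was measured at 0.676, 0.638 and 0.609 TPM in EgfrKO libraries, 1.51, 1.31 and 1.65 TPM in Klf5KO libraries and 0.254, 0.220 and 0.258 TPM in Smad4KO libraries, against 0.216, 0.491 and 0.373 TPM in WT libraries, and the Klf5KO libraries were the highest (log2 fold change 0.87 ± 0.13). Slc38a3 was measured at 1.05, 0.842 and 1.03 TPM in EgfrKO libraries, 0.162, 0.201 and 0.270 TPM in Klf5KO libraries and 1.29, 1.36 and 0.868 TPM in Smad4KO libraries, against 1.44, 0.878 and 0.830 TPM in WT libraries, and the Klf5KO libraries were the lowest (-0.75 ± 0.15, adjusted p = 0.00103). Neither gene was called in EgfrKO or Smad4KO against WT. Slc38a6, whose cargo is less defined, averaged 5.53 TPM in EgfrKO, 5.45 TPM in Klf5KO and 4.60 TPM in Smad4KO, against 4.38 TPM in WT. It was not called with all libraries, and without Klf5KO replicate 3 the Klf5KO difference was called (0.0381).

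In the SLC36 family of proton-coupled carriers, Slc36a1, known from lysosomes and from the gut, was measured at 11.7, 11.2 and 10.6 TPM in EgfrKO libraries, 10.7, 8.12 and 9.44 TPM in Klf5KO libraries and 6.31, 6.33 and 6.24 TPM in Smad4KO libraries, against 4.74, 5.03 and 5.26 TPM in WT libraries. All knockout libraries exceeded all WT libraries, EgfrKO by 1.02 ± 0.09 (adjusted p = 9.26e-06), Klf5KO by 0.79 ± 0.09 (2.37e-05) and Smad4KO by 0.28 ± 0.09 (0.0261) on the log2 scale. The EgfrKO mean was 2.23 times that of WT. The Smad4KO call was lost after scaling (0.0571), without WT replicate 1 or 2, and without each of the 3 Smad4KO libraries (0.0521 to 0.0809). Slc36a4, known in humans as a carrier of proline and tryptophan, was measured at 1.86, 2.14 and 2.73 TPM in EgfrKO libraries, 5.70, 4.91 and 6.17 TPM in Klf5KO libraries and 1.82, 1.85 and 0.754 TPM in Smad4KO libraries, against 2.44, 3.33 and 3.05 TPM in WT libraries. Klf5KO libraries lay above and Smad4KO libraries below all WT libraries, with log2 fold changes of 0.75 ± 0.19 (0.00442) and -0.70 ± 0.19 (0.00944). The Klf5KO call was lost after scaling, at 0.46 (0.0631).

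Both tested SLC43 genes were higher in Klf5KO. Slc43a2 (chromosome 11, 75529915 to 75577575), the leucine and large neutral amino acid carrier LAT4, was measured at 13.8, 13.5 and 12.1 TPM in EgfrKO libraries, 26.2, 22.7 and 24.3 TPM in Klf5KO libraries and 10.5, 8.69 and 11.5 TPM in Smad4KO libraries, against 11.6, 12.02 and 10.5 TPM in WT libraries. Slc43a3, known in humans as a carrier of purine nucleobases rather than amino acids, was measured at 1.71, 1.24 and 1.23 TPM in EgfrKO libraries, 5.52, 4.58 and 5.87 TPM in Klf5KO libraries and 1.91, 2.09 and 1.89 TPM in Smad4KO libraries, against 1.39, 1.33 and 1.26 TPM in WT libraries. In both genes the Klf5KO libraries lay above all others. The log2 fold change was 1.04 ± 0.10 for Slc43a2 (adjusted p = 6e-06) and 1.44 ± 0.12 for Slc43a3 (1.99e-06), 2.14 and 4.01 times the WT mean. Both calls held after scaling. With the fibroblast list as a covariate, which cannot be told apart from the label, the values were 1.004 (0.0209) and 1.21 (0.0162). A Smad4KO call on Slc43a3 (0.35, 0.0303) was lost without any 1 of the 3 WT or 3 Smad4KO libraries (0.0525 to 0.0856).

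The SLC6 family had 21 genes in the table, of which 5 were tested, with 2 higher and 1 lower in EgfrKO, 1 higher and 2 lower in Klf5KO, and 4 higher and 1 lower in Smad4KO, where 2 of the 4 passed the filter through Smad4KO alone. Slc6a6 (chromosome 6, 91684048 to 91759063), the taurine carrier, was the most abundant of all 66 genes, at 152, 146 and 139 TPM in EgfrKO libraries, 227, 166 and 179 TPM in Klf5KO libraries and 153, 164 and 146 TPM in Smad4KO libraries, against 108, 113 and 109.9 TPM in WT libraries. WT libraries lay below all others. Slc6a6 rose by 0.40 ± 0.10 in EgfrKO (adjusted p = 0.00613), 0.77 ± 0.10 in Klf5KO (3.21e-05) and 0.48 ± 0.10 in Smad4KO (0.00138) on the log2 scale, and each call held after scaling. Under the fibroblast covariate the Klf5KO value was 0.43 (0.154). Slc6a8 (chromosome X, 73673133 to 73682502), the creatine carrier, had the opposite pattern, at 20.5, 19.6 and 19.5 TPM in EgfrKO libraries, 22.5, 23.4 and 23.5 TPM in Klf5KO libraries and 20.6, 25.4 and 19.8 TPM in Smad4KO libraries, against 29.0, 30.1 and 37.996 TPM in WT libraries. WT libraries lay above all others, and the log2 fold changes were -0.67 ± 0.11 in EgfrKO (0.000484), -0.46 ± 0.11 in Klf5KO (0.00261) and -0.54 ± 0.11 in Smad4KO (0.00139). The Klf5KO call did not hold with a covariate for leukocyte markers (0.0846) or for fibroblast markers (0.443).

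Slc6a9, the glycine carrier GlyT1, was measured at 13.1, 12.9 and 11.4 TPM in EgfrKO libraries, 8.22, 5.99 and 5.98 TPM in Klf5KO libraries and 9.97, 10.999 and 8.57 TPM in Smad4KO libraries, against 8.26, 6.12 and 6.53 TPM in WT libraries. EgfrKO and Smad4KO libraries lay above all WT libraries, with log2 fold changes of 0.76 ± 0.14 (adjusted p = 0.00109) and 0.45 ± 0.14 (0.018), and Klf5KO overlapped WT. The Smad4KO call was lost without WT replicate 2 (0.07), WT replicate 3 (0.0588) or Smad4KO replicate 2 (0.0692). After scaling Slc6a9 was lower in Klf5KO, at -0.36 (0.0236).

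A pair of low SLC6 genes known from the brush border of gut and kidney was highest in Smad4KO. Slc6a19, the neutral amino acid carrier B0AT1, was measured at 0.799, 0.652 and 0.426 TPM in EgfrKO libraries, 0.210, 0.605 and 0.542 TPM in Klf5KO libraries and 2.73, 3.35 and 2.40 TPM in Smad4KO libraries, against 0.571, 0.454 and 0.400 TPM in WT libraries. Slc6a20a, the proline carrier SIT1, was measured at 0.325, 0.384 and 0.285 TPM in EgfrKO libraries, 0, 0 and 0 TPM in Klf5KO libraries and 2.38, 2.60 and 2.75 TPM in Smad4KO libraries, against 0.618, 0.228 and 0.288 TPM in WT libraries. In both genes every Smad4KO library exceeded every other library, and Slc6a20a was listed at 0 in all 3 Klf5KO libraries. The log2 fold change in Smad4KO was 1.37 ± 0.16 for Slc6a19 and 1.39 ± 0.14 for Slc6a20a, 5.95 and 6.82 times the WT mean. Slc6a20a was called lower in Klf5KO than in WT (limma adjusted p = 0.0117), on values below 1 TPM in both groups. The gene passed the filter through Smad4KO alone. The Klf5KO call was lost without WT replicate 1 (0.0555) and with the leukocyte (0.0962) or fibroblast (0.174) list as a covariate. The near-identical neighbour Slc6a20b reached at most 0.307 TPM, and how reads were split between the pair is uncertain. The light and heavy chains of the cystine and dibasic amino acid system of the same epithelia, Slc7a9 and Slc3a1, did not pass the filter. Slc7a9 was listed at 0 in all 9 EgfrKO, Klf5KO and WT libraries and was 0.551, 0.764 and 0.396 TPM in Smad4KO libraries. Slc3a1 was measured at 0.421, 0.662 and 0.864 TPM in EgfrKO libraries, 0.210, 0.431 and 0.565 TPM in Klf5KO libraries and 1.32, 0.975 and 0.527 TPM in Smad4KO libraries, against 0.355, 0.457 and 0.267 TPM in WT libraries, and Smad4KO lay above WT but overlapped EgfrKO and Klf5KO.

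**Figure D5:**
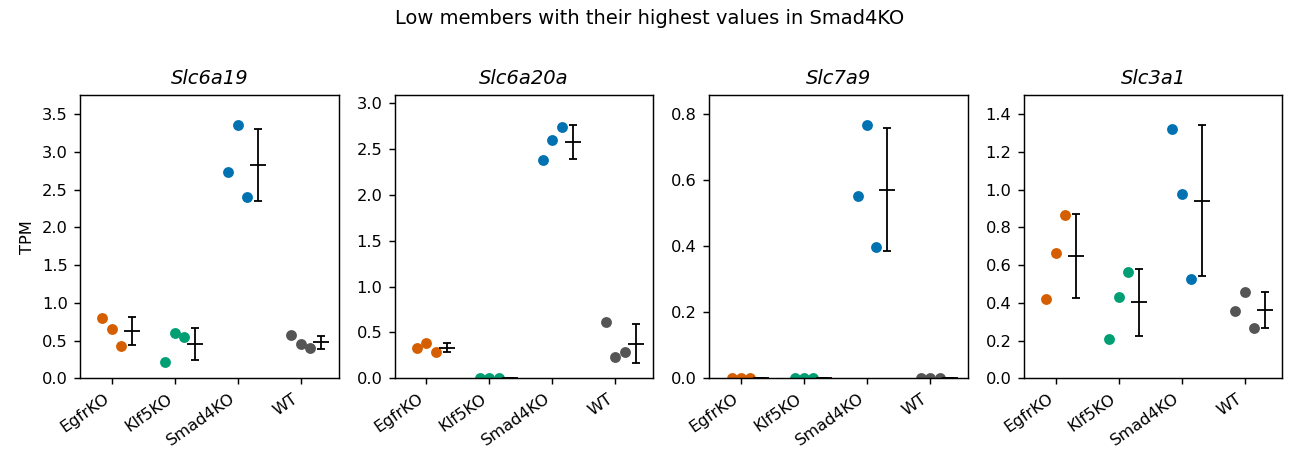
TPM of 4 low genes by genotype label (linear axes from 0), 1 point per library, with bars for the mean ± SD of 3 libraries. Slc6a19, Slc6a20a and Slc7a9 have every Smad4KO point above all others, while for Slc3a1 the Smad4KO points overlap those of EgfrKO and Klf5KO.

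The genes named for lying opposite a transporter were described apart. Slc7a6os, a protein-coding gene beside Slc7a6 on chromosome 8, averaged 60.4 ± 2.73 TPM in EgfrKO, 55.7 ± 2.82 TPM in Klf5KO and 48.3 ± 0.829 TPM in Smad4KO, against 55.6 ± 6.08 TPM in WT (SD, n = 3 each). Its Smad4KO call (-0.19, adjusted p = 0.0484) had overlapping groups and was lost without WT replicate 2 or 3 or any 1 of the 3 Smad4KO libraries (0.0782 to 0.183). Slc36a1os, a long noncoding RNA, averaged 1.94 TPM in EgfrKO, 1.68 TPM in Klf5KO and 2.32 TPM in Smad4KO, against 1.55 TPM in WT. Its call in Smad4KO (0.38, 0.0374) was lost without any 1 of the 3 WT or 3 Smad4KO libraries (0.0689 to 0.0914). In RefSeq coordinates of GRCm38.p6, Slc7a6os (106200438 to 106210933) does not overlap Slc7a6, which ends at 106198714. Slc36a1os (chromosome 11, 55191719 to 55197682) does not overlap Slc36a1 (55204322 to 55236330) there either. The sources used here do not state the annotation behind the TPM or whether the reads kept their strand, and mixing of reads was not tested.

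Across the contrasts, which share the WT libraries, 4 of the 32 genes were higher than WT in all 3 knockouts, Slc6a6, Slc7a7, Slc38a9 and Slc36a1, where 14.2% of all tested genes were. One, Slc6a8, was lower in all 3, where 3.25% of all tested genes were. Between knockouts, EgfrKO against Klf5KO had 5 genes higher and 13 lower of the 32, beside 14.7% and 40.5% of all tested genes. EgfrKO against Smad4KO had 11 higher and 4 lower, beside 18.7% and 14.5%, and Klf5KO against Smad4KO had 18 higher and 6 lower, beside 45.5% and 18.3%. Counted in either direction, 55.2%, 33.2% and 63.8% of all tested genes were called in these 3 comparisons. After scaling 9 of the 32 were higher and 10 lower in EgfrKO against Klf5KO (26.4% and 25.3% of all genes), 11 and 5 in EgfrKO against Smad4KO (16.5% and 19.6%), and 13 and 8 in Klf5KO against Smad4KO (29.1% and 31.2%). Both sets of counts include Slc38a1 and Slc1a2 as higher in Klf5KO than in EgfrKO and Smad4KO. They also include Slc6a19 and Slc6a20a as higher in Smad4KO than in EgfrKO and Klf5KO. Each of these genes would have failed the filter without the group where it was high. The 11 genes higher in EgfrKO than in Smad4KO included Slc7a6 (0.80 ± 0.08, adjusted p = 1.46e-05), Slc7a8 (1.08 ± 0.16, 0.000393) and Slc36a1 (0.74 ± 0.09, 0.000118). Slc1a5 was higher in EgfrKO than in Klf5KO (0.65 ± 0.09, 0.000126) and lower in Klf5KO than in Smad4KO (-0.73 ± 0.09, 3.32e-05). Under the fibroblast covariate, 5 of the 16 genes higher in Klf5KO than in WT kept their call, Slc7a2, Slc7a7, Slc38a10, Slc43a2 and Slc43a3. A lost call does not show that a difference went, since the median SE of the 16 fold changes was 0.20 with the covariate and 0.10 without it. Of the 11 lost, 4 had a fold change below 0.5 of its size as deposited, while Slc36a1 (0.69, adjusted p = 0.0577), Slc38a1 (0.96) and Slc38a7 (0.33, 0.215) stayed about as large. The mean log2 level of that list was 3.51 to 3.99 in Klf5KO and 2.13 to 2.87 in WT libraries, without overlap, so the list and the label cannot be told apart.

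Of the 34 genes that did not pass the filter, 9 were listed at 0 in all 12 libraries, Slc1a6, Slc38a5, Slc6a5, Slc6a11, Slc6a16, Slc6a19os, Slc6a21, Slc7a10 and Slc7a12. The other 25 were above 0 somewhere. Among the light chain and cationic groups, the highest TPM in any library was 1.07 for Slc7a15, 0.690 for Slc7a14 and 0.181 for Slc7a13, besides Slc7a9 and Slc3a1 above. The glutamate carriers Slc1a1 and Slc1a3 reached 0.250 and 0.0447 TPM. In the SLC38, SLC36 and SLC43 families the highest TPM was 0.290 for Slc38a8, 0.248 for Slc38a4, 0.0923 for Slc38a11, 0.435 for Slc36a2, 0.102 for Slc36a3 and 0.174 for Slc43a1. Among SLC6 genes the highest TPM was 0.624 for Slc6a17, 0.611 for Slc6a18, 0.345 for the serotonin carrier Slc6a4, 0.204 for the noradrenaline carrier Slc6a2 and 0.0354 for the dopamine carrier Slc6a3. The carriers of GABA and betaine Slc6a12 and Slc6a13 reached 0.0872 and 0.105 TPM. Slc6a15, Slc6a7 and Slc6a14 reached 0.107, 0.0209 and 0.0371 TPM. These genes were left out of the test above. In a fit with no filter 6 of them were called against WT, Slc7a9 (listed at 0 in WT, adjusted p = 3.78e-05) and Slc3a1 (0.50, 0.0347) in Smad4KO, Slc36a2 (0.34, 0.0207), Slc6a17 (0.30, 0.039) and Slc7a13 (0.20, 0.00283) in Klf5KO, and Slc6a4 in both (0.36, 0.00119, in Smad4KO and 0.22, 0.0127, in Klf5KO), all higher and all on low values. The share of all genes called in that fit is not given here, so the 6 cannot be read as many or few.

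Genes that act beside the transporters were described from lists of known members, whose counts stand beside 31.3% higher and 12% lower of all tested genes in EgfrKO, 55.2% and 11.1% in Klf5KO, and 32.2% and 17.4% in Smad4KO. After scaling those shares were 18.0% and 22.2%, 24.6% and 27.5%, and 25.1% and 24.7%. Of 22 genes of the Atf4 amino acid response, 11 were higher and 7 lower in EgfrKO, 12 higher and 8 lower in Klf5KO, and 10 higher and 6 lower in Smad4KO, against WT. The median log2 fold change of the list was 0.38, 0.29 and 0.23, beside 0.14, 0.31 and 0.10 for all tested genes. After scaling the counts were 11 higher and 9 lower in EgfrKO, 1 and 9 in Klf5KO, and 7 and 8 in Smad4KO. Atf4 itself was measured at 243, 254 and 241 TPM in EgfrKO libraries, 181, 228 and 196 TPM in Klf5KO libraries and 233, 236 and 219.5 TPM in Smad4KO libraries, against 311, 339 and 348 TPM in WT libraries, with all knockout libraries below WT and log2 fold changes of -0.43 (adjusted p = 0.000884), -0.72 (9.73e-06) and -0.53 (0.000121) in EgfrKO, Klf5KO and Smad4KO. The stress genes Atf3, Ddit4 and Nupr1 fell likewise in all 3, to 52.2%, 17.4% and 41.7% of WT for Atf3. Asns, which makes asparagine, moved the other way, at 88.8, 81.7 and 80.6 TPM in EgfrKO libraries, 40.6, 31.0 and 42.6 TPM in Klf5KO libraries and 55.1, 60.3 and 58.4 TPM in Smad4KO libraries, against 34.9, 27.4 and 27.8 TPM in WT libraries. Its log2 fold changes were 1.46 ± 0.12 in EgfrKO (3.4e-06), 0.33 ± 0.12 in Klf5KO (0.0264) and 0.93 ± 0.12 in Smad4KO (4.54e-05), and -0.02 in Klf5KO after scaling (0.89).

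Of 22 tested genes of amino acid sensing by mTORC1, 6 were higher and 4 lower in EgfrKO, 10 higher and 5 lower in Klf5KO, and 5 higher and 5 lower in Smad4KO. Their median log2 fold change was 0.08 in EgfrKO, 0.12 in Klf5KO and 0.10 in Smad4KO. After scaling the counts were 4 higher and 5 lower in EgfrKO, 5 and 12 in Klf5KO, and 4 and 8 in Smad4KO. As deposited, the counts of higher genes, 6, 10 and 5 of 22, lay near or below the shares of all genes, 31.3%, 55.2% and 32.2%. That difference was not tested. Mtor, the kinase itself, averaged 17.5 ± 0.421 TPM in EgfrKO, 23.5 ± 2.89 TPM in Klf5KO and 17.6 ± 1.26 TPM in Smad4KO, against 13.0 ± 0.325 TPM in WT, and was called higher in all 3. Sesn3, a sestrin that restrains the pathway, averaged 10.7, 32.9 and 15.1 TPM in EgfrKO, Klf5KO and Smad4KO, against 11.1 TPM in WT, with a Klf5KO log2 fold change of 1.48 ± 0.11 (adjusted p = 1.08e-06). The Rag GTPase gene Rraga fell in all 3 knockouts (-0.45, -0.17 and -0.38). Rragc fell in Smad4KO (-0.46, 8.81e-06) and EgfrKO (-0.14, 0.0334), and in Klf5KO its call of 0.12 turned to -0.23 after scaling.

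Enzymes of cysteine and glutathione, downstream of cystine import through Slc7a11, had 9 of 11 tested genes higher in EgfrKO, 7 in Klf5KO and 8 in Smad4KO, and none lower. The Klf5KO count is near the 55.2% of all genes. Their median log2 fold change was 0.64 in EgfrKO, 0.38 in Klf5KO and 0.56 in Smad4KO. After scaling the counts were 8 higher and 0 lower in EgfrKO, 4 higher and 2 lower in Klf5KO, and 7 higher and 0 lower in Smad4KO. Gclc, the catalytic subunit of the rate-limiting step of glutathione synthesis, was measured at 149, 155 and 140.3 TPM in EgfrKO libraries, 147, 128 and 125 TPM in Klf5KO libraries and 202, 200.1 and 192 TPM in Smad4KO libraries, against 75.6, 79.7 and 71.9 TPM in WT libraries. All knockout libraries exceeded WT, with log2 fold changes of 0.96 ± 0.07 in EgfrKO (adjusted p = 1.33e-06), 0.81 ± 0.07 in Klf5KO (1.79e-06) and 1.38 ± 0.07 in Smad4KO (3.36e-08). Its partner Gclm averaged 81.0 TPM in EgfrKO, 86.5 TPM in Klf5KO and 78.3 TPM in Smad4KO, against 57.2 TPM in WT, and Ggt7 of the glutamyl transferase family 10.1, 6.24 and 4.89 TPM, against 1.55 TPM in WT. Gss, the last enzyme of the synthesis, was called only in Smad4KO (0.56, 3.06e-06). In Smad4KO and, after scaling, in EgfrKO, Gclc was thus higher than in WT while Slc7a11 was lower. The Slc7a11 call in Smad4KO as deposited was lost without WT replicate 1, without Smad4KO replicate 3 and with the fibroblast list.

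Of 12 glutamine and glutamate enzymes, 6 were higher and 0 lower in EgfrKO, 8 higher and 1 lower in Klf5KO, and 8 higher and 1 lower in Smad4KO, with medians of 0.19, 0.30 and 0.29. The Klf5KO count is again near that of all genes. After scaling the counts of higher and lower were 3 and 2 in EgfrKO, 2 and 3 in Klf5KO, and 7 and 1 in Smad4KO. Glul, which makes glutamine, was measured at 133, 113 and 119 TPM in EgfrKO libraries, 97.97, 86.5 and 93.2 TPM in Klf5KO libraries and 203, 215 and 195 TPM in Smad4KO libraries, against 101, 120.0 and 114 TPM in WT libraries, so only Smad4KO stood above WT (0.87 ± 0.08, adjusted p = 3.32e-06). Gfpt1, the entry to hexosamine synthesis, averaged 39.3 TPM in EgfrKO, 64.9 TPM in Klf5KO and 70.4 TPM in Smad4KO, against 39.0 TPM in WT. Cad, which uses glutamine for pyrimidines, was called in EgfrKO (0.36, 0.00113) and Klf5KO (0.75, 3.02e-06). Of 12 tested enzymes of branched-chain amino acids, arginine and tryptophan, 6 were higher and 0 lower in EgfrKO, 6 higher and 0 lower in Klf5KO, and 6 higher and 1 lower in Smad4KO, with medians of 0.45, 0.33 and 0.18. After scaling the counts of higher and lower were 6 and 2 in EgfrKO, 4 and 4 in Klf5KO, and 5 and 1 in Smad4KO. Bcat1, which starts the breakdown of leucine, isoleucine and valine, was measured at 7.43, 6.64 and 7.99 TPM in EgfrKO libraries, 12.1, 9.25 and 13.6 TPM in Klf5KO libraries and 1.44, 1.54 and 1.41 TPM in Smad4KO libraries, against 1.67, 1.26 and 1.87 TPM in WT libraries. EgfrKO and Klf5KO lay above WT (1.69 ± 0.14, 4.22e-06, and 2.28 ± 0.14, 2.71e-07) and Smad4KO overlapped it. Nos2, which uses arginine to make nitric oxide, averaged 6.55 TPM in EgfrKO, 10.2 TPM in Klf5KO and 2.69 TPM in Smad4KO, against 3.06 TPM in WT. Ido1 and Wars, which use tryptophan, were higher in all 3 knockouts, with means of 52.3, 46.7 and 39.2 TPM against 8.13 TPM in WT for Ido1. Wars averaged 108, 136 and 172 TPM in EgfrKO, Klf5KO and Smad4KO, against 54.4 TPM in WT.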

How the data were processed

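RNA was measured in 12 libraries, 3 for each label EgfrKO, Klf5KO, Smad4KO and WT. The authors gave gene-level TPM in 1 deposited table, made with Salmon against mm10, per the submitters' processing notes. Neither the Salmon version nor the annotation is stated in those sources. Columns were matched to samples by title and none was left over. From the deposited TPM, log2(TPM + 1) was fitted for 13662 genes that reached 1 TPM in 3 or more libraries, in limma 3.58.1 (R 4.3.3), with 4 group means, eBayes with a trend, 6 contrasts, two-sided tests and Benjamini-Hochberg adjustment within each contrast over all tested genes at 0.05. Fold changes on this scale are too small for low genes. The fitting was tested on simulated data. The genes, lists and alternatives were chosen with earlier results of these data known. Tested genes called against WT with a log2 fold change of at least 0.5 in size are given with all 12 values, other tested genes with ranges or means, and the rest with their highest value, except 1 gene below the filter that is not reported here. Up to 4 genes of each other list, those with the smallest adjusted p, and the 2 most abundant markers per cell type are named. Alternatives were another pseudocount, other filters, 2 scalings, no trend, a fit of the 2 groups alone, a replicate block, 3 marker lists as covariates, and leaving out each library. RefSeq promoter windows of GRCm38.p6 were searched for 2 motifs on both strands.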

Additional observations from a re-analysis of the deposited data

How the results depend on the processing

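The count of the 32 tested genes higher in EgfrKO than in WT was 7 to 8 when each library was left out in turn, beside 8 with all libraries, and the count of lower genes was 4 each time. In Klf5KO 3 genes were lower with all libraries. That count was 1 with a minimum of 5 TPM, which tests fewer genes, 8 after median-of-ratios scaling, 8 after quantile normalization and 1 with the leukocyte list as a covariate. The 16 genes higher in Klf5KO became 5 with a fibroblast covariate, where the median SE was 0.20, beside 0.10 without it, and 4 of the 11 lost had a fold change below 0.5 of its size. The 11 genes higher in Smad4KO became 6 with a minimum of 5 TPM, 7 after quantile normalization, 7 with the leukocyte list and 7 with the macrophage list, and were 7 to 8 when libraries were left out. Between knockouts, the fibroblast list took the calls in EgfrKO against Klf5KO to 8, beside 18, and in Klf5KO against Smad4KO to 7, beside 24. The leukocyte and macrophage lists each took EgfrKO against Smad4KO to 9, beside 15. Calls among all tested genes also fell when libraries were left out. They were 4570 to 5619 in EgfrKO against WT, beside 5920, and 5730 to 6225 in Smad4KO against WT, beside 6781. For the covariates, quantile normalization and the minimum of 5 TPM, the share of all genes called is not given here. A fall in those counts is therefore not read as particular to the transporters.

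Among 162 gene and contrast pairs compared, fold changes past the threshold with or without the alternative turned round in 5 genes. The cause was not tested. Others turned round where neither value was called. In Klf5KO against WT, Slc1a4 became -0.08 on the log2 scale under both median-of-ratios scaling (-0.0752) and quantile normalization (-0.0783), Slc38a7 became -0.0409 and -0.0274, and Slc7a6os became -0.35 and -0.26. With the fibroblast list, Slc7a1 became -0.0705 in Klf5KO against WT and Slc6a6 became -0.20 in Klf5KO against Smad4KO. A pseudocount of 0.1 changed no call among the 162 gene and contrast pairs compared. Those pairs leave out contrasts between knockouts for tested genes without a called log2 fold change of at least 0.5 against WT. Slc3a2 is 1 such gene. In Klf5KO against Smad4KO it turned from 0.13 as deposited (limma adjusted p = 0.0301) to -0.12 after median-of-ratios scaling (0.0624).

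The replicate number did not pair the libraries. Of 18 pairs with the same number, 1 had a correlation of deviations above 0.1 (range -0.149 to 0.116), and 2 of 12 libraries correlated best with their own number. With the replicate number as a block, 9 genes were higher and 4 lower in EgfrKO, 16 and 3 in Klf5KO, and 11 and 9 in Smad4KO. The share of all genes called with the block is not given here. Depth is unknown in TPM, so no detection limit is given for genes listed at 0.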

Other observations

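Amino acid carriers outside the 7 families were described from a further list, of which 13 genes were tested. In EgfrKO 7 were higher and 1 lower than WT, in Klf5KO 11 were higher and 0 lower, and in Smad4KO 6 were higher and 4 lower, beside 31.3% and 12%, 55.2% and 11.1%, and 32.2% and 17.4% of all tested genes. After scaling the counts were 6 and 2 in EgfrKO, 5 and 1 in Klf5KO, and 5 and 4 in Smad4KO. Slc16a10, a carrier of aromatic amino acids, was measured at 18.2, 17.2 and 15.2 TPM in EgfrKO libraries, 40.9, 32.8 and 32.5 TPM in Klf5KO libraries and 15.5, 12.9 and 14.4 TPM in Smad4KO libraries, against 9.59, 11.2 and 9.90 TPM in WT libraries. Every knockout library lay above every WT library, with log2 fold changes of 0.67 ± 0.11 in EgfrKO (limma adjusted p = 0.000497), 1.69 ± 0.11 in Klf5KO (3.33e-07) and 0.44 ± 0.11 in Smad4KO (0.00513).

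Slc15a3, a lysosomal carrier of histidine and small peptides known from immune cells, was measured at 9.19, 8.09 and 7.72 TPM in EgfrKO libraries, 13.7, 16.5 and 19.9 TPM in Klf5KO libraries and 2.41, 1.70 and 3.27 TPM in Smad4KO libraries, against 3.47, 4.92 and 2.54 TPM in WT libraries. It rose by 1.04 ± 0.21 in EgfrKO (adjusted p = 0.00206) and 1.95 ± 0.21 in Klf5KO (1.1e-05), groups with leukocyte marker sums of 302 to 314 TPM and 276 to 436 TPM, against 179.5 to 267 TPM in WT, and the part of those cells was not tested. Both mitochondrial carriers named here had their highest mean in Smad4KO. Sfxn1, which brings serine into mitochondria, averaged 57.7 TPM in EgfrKO, 82.2 TPM in Klf5KO and 90.9 TPM in Smad4KO, against 53.1 TPM in WT. Slc25a12, the aspartate and glutamate exchanger, averaged 9.02 TPM in EgfrKO, 9.91 TPM in Klf5KO and 13.1 TPM in Smad4KO, against 4.99 TPM in WT, and was called in all 3 (0.75, 0.86 and 1.24).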
